A study of Drosophila melanogaster with 3 samples.

Results

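A divergent promoter is a stretch of DNA that holds the start sites of a minus-strand gene and a plus-strand gene, which are transcribed away from each other. At 836 of the 7201 reproducible peak summits of GFP-tagged Noc in Drosophila melanogaster larvae, a transcription start site of a minus-strand and of a plus-strand protein-coding gene both lay within 500 bp. These 836 summits (11.6%, Wilson 95% interval 10.9 to 12.4%) are the divergent summits described here. Among the 7201 they were chosen by position alone, with the Ensembl annotation of the dm6 assembly, and peak strength played no further part. The 7201 are themselves the strongest of 30000 peaks called in the 3 libraries pooled. Of the other summits, 2467 had coding start sites of 1 strand only within 500 bp, called one-strand summits below, and 3898 had none.

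Chromatin immunoprecipitation with sequencing (ChIP-seq) was done with an antibody against GFP on whole larvae of a transgenic line that carries Noc with GFP at its C-terminus. There is 1 group of 3 biological replicates of male and female larvae, whose age is labelled 48 days, longer than larval life usually lasts, so the value or its unit is in doubt. No untagged larvae were analysed here, so a peak is not by itself proof that Noc was bound, and because whole larvae were used, many cells with little Noc on a site and few cells with much of it cannot be told apart. The deposited files are peak lists without read counts, so the depth of the libraries is unknown, and they hold no expression values against which the tissue could be checked.

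Noc is a zinc finger protein of the NET family, known as a transcriptional repressor in the development of appendages, eyes and tracheae. In the compact fly genome many coding genes lie head to head and share the DNA upstream of both. Genes arranged like this are often housekeeping genes, whose promoters are known for the DNA replication-related element (DRE), which the factor Dref and the insulator protein BEAF-32 recognise, and for the motif of the factor M1BP, while developmentally regulated promoters are known more for TATA boxes, initiators and GAGA factor sites.

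The labelled arrangement held for most members. At 802 of the 836 summits (95.9%) the minus-strand start site lay to the left of the plus-strand one, so that the genes were head to head, and at the other 34 the start sites overlapped, so that the genes overlapped at their 5′ ends. The 836 summits fell on 754 different gene pairs with 1553 genes. Of the pairs, 78 had 2 summits and 2 had 3. Across the replicate lists, each shortened to its 7201 peaks of highest signal, the rule found 878, 855 and 768 summits in replicates 1, 2 and 3, or 11.6 ± 0.806% (SD, n = 3).

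The DNA under the strongest members shows what the summits sat on. The lines give up to 50 bp to each side of the summit, plus strand, 5′ to 3′, from the RefSeq copy of dm6. They hold only bases that lie between the start sites and outside annotated exons. The pairs are the 9 among the 15 strongest that have such sequence on the arms 2L, 3L and 3R, from the highest signal down. Capitals mark any of the 21 words that were searched on both strands.
eIF4EHP and CG18428 (chr3R:24109129-24109229): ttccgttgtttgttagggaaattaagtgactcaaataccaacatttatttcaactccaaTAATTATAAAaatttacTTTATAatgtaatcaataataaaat
Art3 and mRpS10 (chr3R:15229482-15229582): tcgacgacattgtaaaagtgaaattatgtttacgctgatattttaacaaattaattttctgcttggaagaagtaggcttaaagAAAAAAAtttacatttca
CG5611 and Mtl (chr3R:27636130-27636230): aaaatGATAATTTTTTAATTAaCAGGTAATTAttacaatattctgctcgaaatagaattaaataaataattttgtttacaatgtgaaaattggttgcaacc
Elp6 and Dic1 (chr3R:13364707-13364807): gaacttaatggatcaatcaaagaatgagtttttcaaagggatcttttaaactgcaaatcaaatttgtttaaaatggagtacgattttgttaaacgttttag
Tcs5 and CHMP2B (chr3L:5139449-5139549): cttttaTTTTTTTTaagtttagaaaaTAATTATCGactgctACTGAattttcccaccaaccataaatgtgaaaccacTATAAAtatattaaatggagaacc
Hrd3 and PTPMT1 (chr3R:23758096-23758196): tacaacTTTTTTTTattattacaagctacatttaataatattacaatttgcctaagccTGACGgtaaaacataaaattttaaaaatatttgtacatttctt
CG13390 and CG17294 (chr2L:8376842-8376942): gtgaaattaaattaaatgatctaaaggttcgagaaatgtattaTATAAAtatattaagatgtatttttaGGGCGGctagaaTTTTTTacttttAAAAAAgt
mRpS23 and CenG1A (chr2L:13835414-13835514): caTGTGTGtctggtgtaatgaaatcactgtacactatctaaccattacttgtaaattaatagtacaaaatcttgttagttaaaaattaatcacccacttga
CG3437 and CG3552 (chr3L:9457753-9457853): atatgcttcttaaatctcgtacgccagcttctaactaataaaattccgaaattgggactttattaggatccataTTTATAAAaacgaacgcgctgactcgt
All 9 are rich in A and T. G and C made up 20.8% to 35.6% of the bases, and under 30% in 8 of the 9. TATAAA, the core of a TATA box, stood in 4 of them, TAATTA, a core that homeodomain proteins recognise, in 3, and a run of AAAAAA in 5. TATCGATA, the core of the DRE, stood in none, nor did the M1BP word GGTCACAC or the GAGA factor word GAGAG. Within 50 bp of all 836 divergent summits, TATAAA stood at 25.5%, TAATTA at 13.9% and AAAAAA at 24.4%. The DRE, M1BP and GAGA factor words stood at 2.75, 1.67 and 8.25%. At such shares 9 sequences are too few to show an absence.

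Among sequences that could be printed in this way, the DRE word was found only at members of lower signal than these. These 4 are the strongest members whose printable sequence holds it, written in the same way.
pix and Srp68 (chr3L:8974770-8974870): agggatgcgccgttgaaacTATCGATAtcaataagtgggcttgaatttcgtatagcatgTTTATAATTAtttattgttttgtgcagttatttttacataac
RpL34a and Trmt61 (chr3R:26059268-26059349): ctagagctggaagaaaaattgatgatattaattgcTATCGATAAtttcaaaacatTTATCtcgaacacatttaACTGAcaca
RpL28 and eIF1 (chr3L:3223044-3223144): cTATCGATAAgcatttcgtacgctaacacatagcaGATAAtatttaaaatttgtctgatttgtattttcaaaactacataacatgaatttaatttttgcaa
eIF3a and CG1074 (chr3R:4433896-4433960): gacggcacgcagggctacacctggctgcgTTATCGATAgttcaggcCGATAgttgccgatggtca
The word contains CGATA, the core of the BEAF-32 site, which therefore stood in all 4. Their genes encode parts of the ribosome (RpL34a, RpL28), initiation factors of translation (eIF1, eIF3a), the ribosome recycling factor pix, the signal recognition particle subunit Srp68, a tRNA methyltransferase (Trmt61) and the numbered gene CG1074. Signal values, the authors' own measure of peak strength whose scale the sources used here do not give, were 580 at pix and Srp68, 577 at RpL34a and Trmt61, 511 at RpL28 and eIF1 and 449 at eIF3a and CG1074. All 4 are above 421, the median of the divergent summits.

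The strongest divergent summit lay between Pdrg1 and Pal1, an enzyme of peptide amidation, on arm 2R at position 9959899. It had rank 13, 11 and 12 in the full lists of replicates 1, 2 and 3, with signal values of 1783, 1461 and 1480, and rank 10 in the reproducible list, with 4602. The summit lay 6 bp from the midpoint of start sites that are 346 bp apart. The second, between the cap-binding translational repressor eIF4EHP and the numbered gene CG18428 on 3R, had ranks 14, 15 and 15 in replicates 1, 2 and 3 and stood 31 bp from the midpoint of a gap of 376 bp. All 3 replicates thus placed these pairs among their 15 strongest peaks.

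The rest of the 15 strongest pairs follow. Art3, an arginine methyltransferase, and mRpS10, a protein of the small mitochondrial ribosomal subunit, had ranks 37, 20 and 53 in replicates 1, 2 and 3, and their summit lay 4.5 bp from the midpoint of a 257 bp gap. Chro, a chromodomain protein of interbands and the spindle, and Ssl1, a subunit of the general factor TFIIH, had ranks 34, 28 and 43. CG5611 and Mtl had ranks 38, 17 and 66. For Elp6, an Elongator subunit, and Dic1, a mitochondrial dicarboxylate carrier, they were 47, 38 and 84. The others are CG11309 and CG7632, Tcs5 (a kinase in tRNA modification) and CHMP2B (an ESCRT-III subunit), Hrd3 (degradation of proteins of the endoplasmic reticulum) and PTPMT1 (a mitochondrial phosphatase), CG1602 and PIG-G (synthesis of membrane anchors), CG13390 and CG17294, Pex11ab (peroxisomes) and CG8320, the immune adaptor imd and Dp1, mRpS23 and CenG1A, and CG3437 and CG3552. All 15 were found in all 3 replicate lists, the weakest rank in any of them was 130 (imd and Dp1 in replicate 2), and 10 stood in the top 100 of all 3.

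At the other end, the 2 lowest signals of members, both 218, were second summits of pairs with a stronger one. With each pair counted by its strongest summit, the lowest signals were 219 at boi, a Hedgehog coreceptor, and z, which encodes Zeste, 218 at alien, a subunit of the COP9 signalosome, and CG18661, and 218 at the nucleolar GTPase gene Non1 and l(2)k10201. The summit of boi and z had rank 7601 in replicate 1 and 7132 in replicate 3 and no match within 100 bp in replicate 2. That of Non1 and l(2)k10201 had ranks 10575 and 8732 in replicates 1 and 3 and none in replicate 2, so it was in none of the shortened lists.

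Divergent summits were dense for the length of DNA that can hold them. The rule was met by 1675 kb of the genome, which held 0.499 summits per kb, while 13658 kb with coding start sites of 1 strand only held 0.181 per kb. The ratio was 2.82, 3.31 and 2.38 in replicates 1, 2 and 3 and 2.76 in the reproducible list. Mean ± SD over replicates was 2.84 ± 0.466 (n = 3), above 1 in 3 of 3. The exact sign-flip permutation test gave p = 0.25, two-sided. With 3 replicates it cannot go lower, so no difference here can reach 0.05 and the spread between replicates is the measure of error.

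The excess was largest within 200 bp upstream of the start site. At positions over 100 to 200 bp upstream of the nearest coding start site, divergent promoters had 1.40 summits per kb and one-strand promoters 0.327, a ratio of 4.29 (4.03, 5.05 and 3.14 in replicates 1, 2 and 3). From 0 to 100 bp upstream the ratio was 2.96 (3.13, 3.71 and 2.56). From over 200 to 300 bp it was 1.08, with 0.940, 2.02 and 0.675 in the replicates, on both sides of 1. From over 300 to 500 bp it was 0.516 (0.749, 0.616 and 0.798), from 4 divergent and 366 one-strand summits. Downstream of the start site the densities were closer. The ratio was 1.26 at 1 to 100 bp, with 1.58, 1.75 and 1.23 in replicates 1, 2 and 3, above 1 in each. It was 1.04 at over 100 to 200 bp (0.745, 1.17 and 1.03) and 0.894 beyond 200 bp (1.23, 0.526 and 0.782), with replicates on both sides of 1. These distance classes were chosen after the data were seen.

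**Figure D1:**
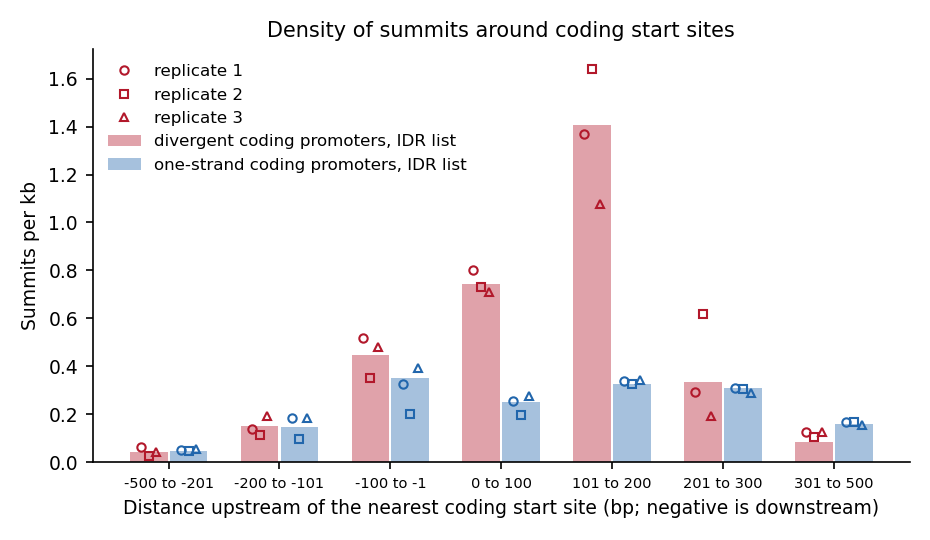
Summits per kb of sequence (vertical axis) at divergent and one-strand coding promoters, by distance upstream of the nearest coding start site (horizontal axis, bp). Bars are the reproducible (IDR) list, open symbols the 3 replicate lists of the same length. The divergent bar reaches 1.40 per kb at over 100 to 200 bp upstream, where the one-strand bar is at 0.327. The bars are closer downstream of the start site.

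Seen from the genes, 815 of the 2667 head-to-head coding pairs in the genome with start sites at most 1000 bp apart had a summit near both genes (30.6%, Wilson 95% interval 28.8 to 32.3%; 32.4, 31.3 and 28.5% in replicates 1, 2 and 3). Of the 5052 genes in such pairs, 1888 (37.4%) had a start site with a summit at most 500 bp away, against 1531 of the other 8893 coding genes (17.2%). Over all 13945 coding genes the share was 24.5%. The difference between paired and other genes was 22.6, 21.3 and 18.9 percentage points in replicates 1, 2 and 3 and 20.2 in the reproducible list (exact sign-flip permutation test, two-sided, p = 0.25). One summit between a pair counts for both of its genes, so the genes of a pair are not independent.

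The share of pairs with a summit depended on the distance between the start sites. It was 45.0% for pairs over 200 to 300 bp apart (50.2, 44.1 and 44.5% in replicates 1, 2 and 3) and 8.48% for pairs over 500 to 1000 bp apart (8.93, 13.4 and 6.10%). Pairs 1 to 100 bp apart had 37.1%, those over 100 to 200 bp apart 30.8% and those over 300 to 500 bp apart 36.7%. Between the classes of over 100 to 200 and over 200 to 300 bp, the step up was seen in each replicate. The low share of the widest class is limited by the rule itself, since on average only 295 bp of a pair's DNA lay within 500 bp of both start sites there, against 747 bp for pairs over 200 to 300 bp apart. In the pooled list of 30000 peaks, 47.3% of the pairs had a summit.

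**Figure D2:**
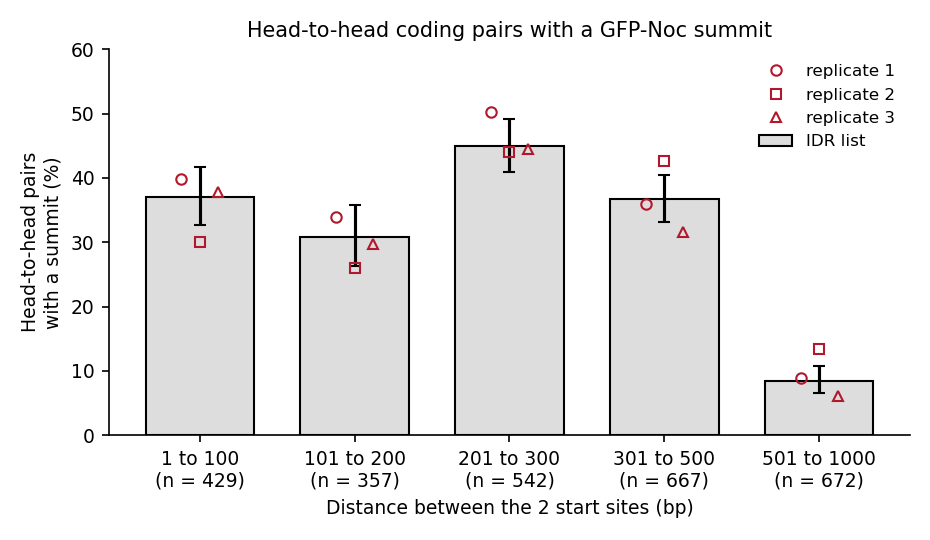
Share of head-to-head coding pairs with a summit within 500 bp of both genes' start sites (vertical axis, %), by the distance between the start sites (horizontal axis, bp; n is the number of pairs). Bars are the reproducible (IDR) list with Wilson 95% intervals, open symbols the 3 replicate lists of the same length. Pairs over 200 to 300 bp apart have the highest bar, at 45.0%.

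Most divergent summits lay in the DNA between the start sites. This held for 605 of 836 (72.4%, Wilson 95% interval 69.2 to 75.3%), with 70.7, 78.5 and 68.0% in replicates 1, 2 and 3. The median distance from the midpoint was 64.8 bp (65.8, 64.5 and 71.5 bp in the replicates), 363 summits (43.4%) lay within 50 bp of it, and 558 (66.7%) within 100 bp. Of the 565 summits between head-to-head start sites at least 100 bp apart, 324 (57.3%) fell nearer to the midpoint than a sixth of that distance. On a scale with the minus-strand start site at 0 and the plus-strand one at 1, their median stood at 0.514 (0.524, 0.513 and 0.515 in replicates 1, 2 and 3). Of all 802 head-to-head summits, 365 (45.5%, Wilson 95% interval 42.1 to 49.0%) were nearer to the minus-strand start site.

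The position differed with the distance between the start sites. For start sites over 200 to 300 bp apart, 207 of 252 summits (82.1%) lay between them, at a median of 35.5 bp from the midpoint. For those over 300 to 500 bp apart it was 234 of 266 (88.0%). For start sites 1 to 100 bp apart it was 25 of 109 (22.9%), and the other 84 lay beyond one of the start sites, at a median of 126.5 bp upstream of one gene and 65.5 bp inside the other. The median distance to the start site that the summit lay farther upstream of was 110 bp at 1 to 100 bp (106, 114 and 111 bp in replicates 1, 2 and 3), 142 bp at over 100 to 200 bp, 165.5 bp at over 200 to 300 bp, 250.5 bp at over 300 to 500 bp and 403 bp at over 500 to 1000 bp. This rise is in part fixed by the rule. A summit between 2 start sites lies at least as far upstream of one of them as the midpoint does, and at most 500 bp. With start sites over 500 bp apart, a summit that meets the rule must lie between them. One-strand summits that were upstream of their start site, 61.6% of them, lay at a median of 197 bp (196, 206 and 188.5 bp in replicates 1, 2 and 3).

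**Figure D3:**
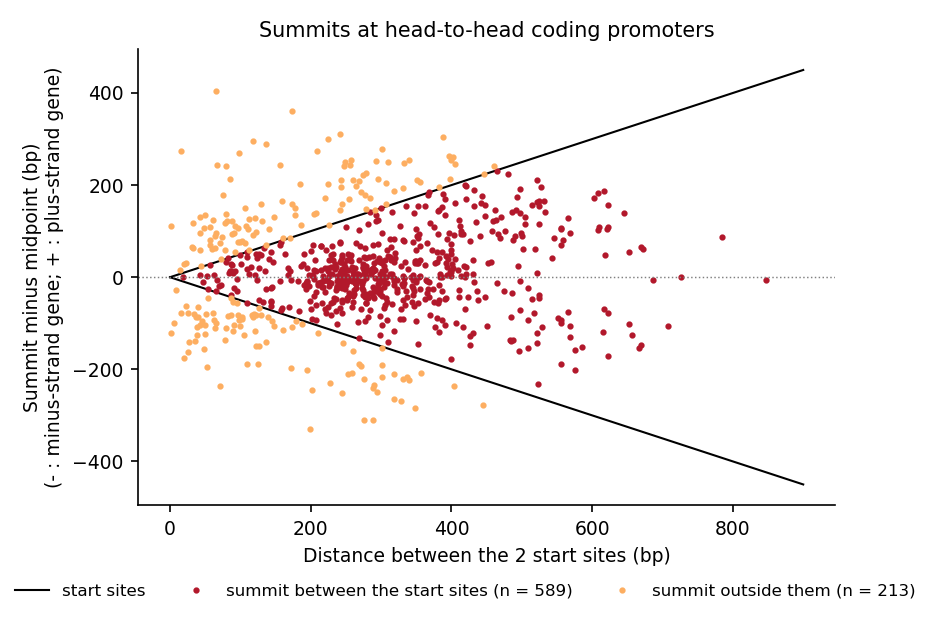
Position of the 802 head-to-head summits relative to the midpoint of the start sites (vertical axis, bp; negative towards the minus-strand gene) against the distance between the start sites (horizontal axis, bp). Each point is a summit of the reproducible list and the black lines are the start sites. The 589 summits between the start sites crowd around the midpoint at distances of 200 to 400 bp, and the 213 outside lie mostly at short distances.

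By annotation, of the 836 divergent summits, 469 (56.1%) lay between genes, 244 (29.2%) in an exon outside coding sequence, 109 (13.0%) in an intron and 14 (1.67%) in coding sequence. Of one-strand summits, 29.3% lay between genes, 35.3% in such exons, 32.8% in introns and 2.68% in coding sequence. The share between genes was 55.1, 63.7 and 51.0% at divergent summits and 28.4, 34.4 and 26.8% at one-strand summits in replicates 1, 2 and 3, without overlap. Of the 213 head-to-head summits outside the start sites, 177 (83.1%) lay in an exon outside coding sequence and none between genes. Of the 589 between the start sites, 469 (79.6%) lay between genes. The annotation thus follows in large part from the position relative to the start sites and is not a separate result.

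A few pairs carried more than 1 summit. Elp6 and Dic1 had 3. The strongest, at 13364757 on 3R, had a signal of 3136, and the others, at 13367144 and 13367378 with 344 and 246, lay between alternative start sites of the same genes. The second had ranks 4475 and 5402 in replicates 1 and 3 and no match in replicate 2, and the last ranked 1942 in replicate 2 but 10019 and 13096 in replicates 1 and 3. CG31650 had 3 summits with CG33995, CG44000 and CG44001, which share a start site and are 1 place in the genome for this count. Their signals, of 311, 241 and 233, were all below the median of the divergent summits.

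Divergent summits had somewhat higher signals than one-strand summits. The median was 421 (quartiles 293 and 648) at divergent summits, 364 at one-strand summits and 351 at summits with no coding start site nearby. As a percentile of rank within the list, with 100 for the strongest, the medians were 60.4 at divergent and 49.99 at one-strand summits. The difference was 8.89, 16.8 and 4.94 points in replicates 1, 2 and 3, or 10.2 ± 6.06 (SD, n = 3), higher at divergent summits in 3 of 3 (exact sign-flip permutation test, two-sided, p = 0.25). In the 3600 IDR peaks with higher signal it was 1.64, and with start sites within 250 bp it was 18.3.

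The excess lay in the upper part of the list. Of the 100 strongest peaks, 18 were divergent, and of the 1000 strongest, 158 (15.8%). In 5 equal parts of the list, from the strongest down, the divergent share was 14.9, 14.4, 10.6, 8.61 and 9.44%. Head-to-head members had a median signal of 426 and the 34 overlapping ones 277. By distance between the start sites, the median signal was highest at over 200 to 300 bp, with 493, and lowest at over 500 to 1000 bp, with 354. The 27 members whose farther start site was over 450 to 500 bp away had a median of 321, and the 34 summits just outside the rule, at over 500 to 550 bp, had 352.

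Of the 836 divergent summits, 430 (51.4%, Wilson 95% interval 48.0 to 54.8%) had a summit within 100 bp in all 3 replicate lists of the same length, against 47.5% of one-strand summits and 49.7% of all 7201. The share is near that of all peaks. The difference from one-strand summits was 3.89 points, with an interval of -0.0317 to 7.79. It turned round with the full lists of 30000 peaks, where 71.2% of divergent and 75.9% of one-strand summits were found in all 3. By replicate, 85.4, 72.6 and 74.2% of the divergent summits were found in replicates 1, 2 and 3, against 83.7, 62.9 and 81.9% of one-strand summits. The share of divergent summits was thus higher in replicate 2 and lower in replicate 3 than that of one-strand summits, and 24 divergent summits (2.87%) were in none. Each library had also entered the pooled call from which the reproducible list comes, so these shares are not independent of it.

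The strongest members that missed a replicate were 3 pairs on 2L. CG7810 and CG7806 had a signal of 1018 and ranks 744 and 487 in replicates 1 and 3, with no match in replicate 2. GCS2beta and CG5131 had ranks 902 and 540 in replicates 1 and 2 and no match in replicate 3. DnaJ-H, a chaperone gene, and Sirt1, a deacetylase gene, had ranks 649 and 5692 in replicates 1 and 3 and 14793 in replicate 2.

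DNA at divergent summits was poor in G and C. Within 50 bp of the summit, G and C made up 32.7% of the bases at divergent and 38.8% at one-strand summits. The difference was -5.85, -5.58 and -6.27 percentage points in replicates 1, 2 and 3 (mean -5.90 ± 0.347, SD, n = 3; lower in 3 of 3; exact sign-flip permutation test, two-sided, p = 0.25). With start sites up to 1000 bp away it was -3.10. Farther out the order turned, and 500 bp to the left of the summit the share was 49.5% at divergent and 41.9% at one-strand summits. Windows of the same length centred 100 bp upstream of each coding gene's outermost start site had 37.6%. Those at midpoints of head-to-head pairs over 100 to 500 bp apart had 31.4% in pairs without a summit and 29.3% with one.

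**Figure D4:**
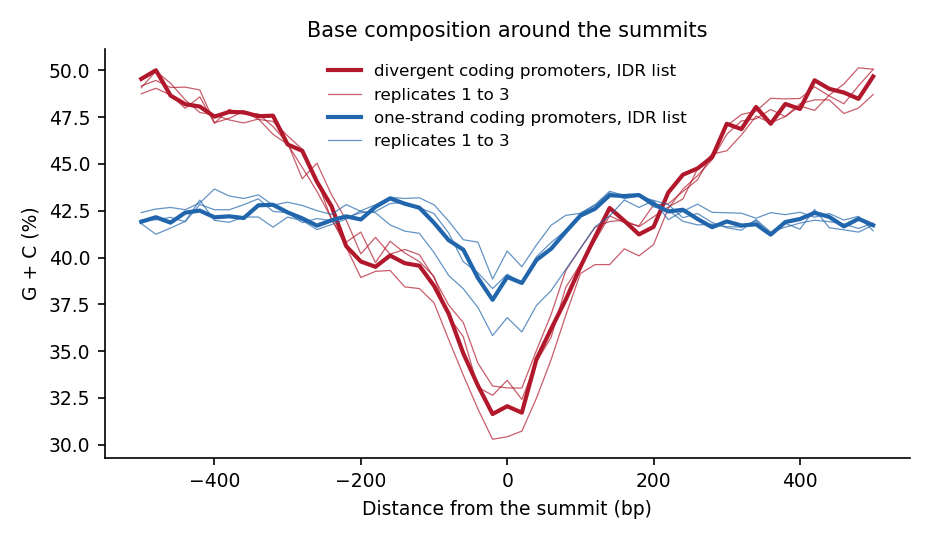
Share of G and C (vertical axis, %) by distance from the summit (horizontal axis, bp) at divergent and one-strand coding promoters. Thick lines are the reproducible (IDR) list and thin lines the 3 replicate lists. The divergent line is lower at the summit and higher beyond 300 bp.

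Words known from housekeeping promoters were more frequent at divergent than at one-strand summits. The DRE word TATCGATA stood within 50 bp of 23 divergent summits (2.75%, Wilson 95% interval 1.84 to 4.09%) and of 18 one-strand summits (0.730%, 0.462 to 1.15%). The ratio of the shares was 3.77 in the reproducible list and 3.81, 2.62 and 5.14 in replicates 1, 2 and 3. Among summits found in both replicates 1 and 2 it was 1.79. The M1BP word GGTCACAC stood at 14 divergent (1.67%) and 14 one-strand summits (0.567%), a ratio of 2.95 (2.39, 2.71 and 1.54 in the replicates), which was 1.89 among summits found in both replicates 2 and 3 and 1.72 with start sites within 250 bp. The BEAF-32 core CGATA, part of every DRE word, stood at 21.4% of divergent and 16.7% of one-strand summits, a ratio of 1.28 (1.26, 1.14 and 1.28). All 3 words were above 1 in each replicate.

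Set against coding promoters as a whole, these words were not frequent at the divergent summits. Of the 13945 windows of the same length upstream of coding genes, 2.62% held the DRE word, 1.39% the M1BP word and 20.4% the BEAF-32 core, close to the 2.75, 1.67 and 21.4% at divergent summits. One-strand summits lay below those shares, at 0.730, 0.567 and 16.7%.

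Words rich in A and T were also more frequent at divergent than at one-strand summits. TATAAA stood at 25.5% of divergent and 16.9% of one-strand summits, a ratio of 1.504 (1.43, 1.41 and 1.64 in replicates 1, 2 and 3), and at 18.2% of the upstream windows of all coding genes. TAATTA stood at 13.9% of divergent and 7.90% of one-strand summits, a ratio of 1.76 (1.67, 1.62 and 1.68), and at 9.42% of those windows. The initiator, GAGA factor and CACACA words were less frequent at divergent summits, in each replicate too. The initiator word TCAGT stood at 16.1% of divergent and 21.0% of one-strand summits, the GAGA factor word GAGAG at 8.25% and 14.2%, and CACACA, a CA repeat, at 5.38% and 8.63%. The upstream windows of all coding genes held these at 16.4, 13.4 and 6.89%.

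**Figure D5:**
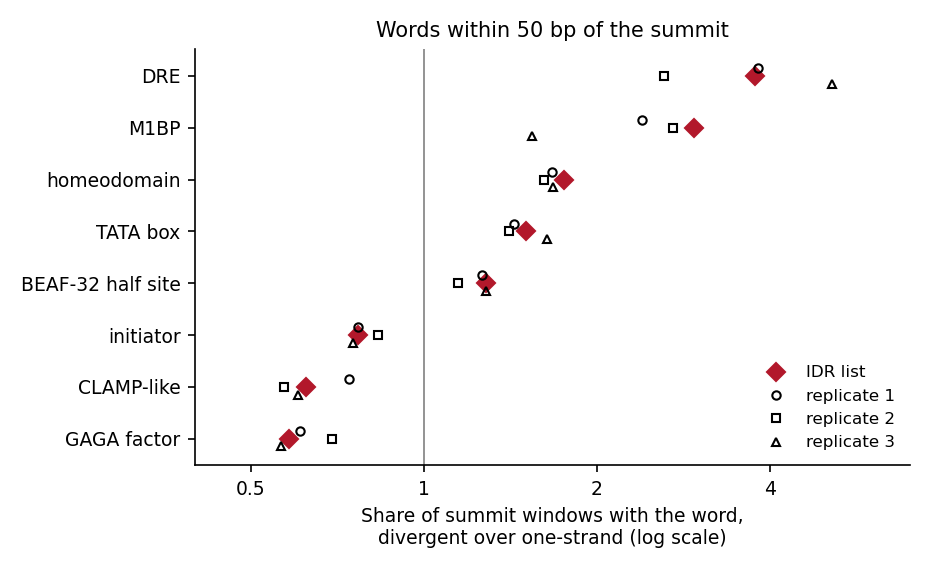
Ratio of the share of windows (50 bp to each side of the summit) that hold a word at divergent summits over that at one-strand summits (horizontal axis, log scale), for 8 words (vertical axis). Diamonds are the reproducible (IDR) list, open symbols the 3 replicate lists. DRE and M1BP lie farthest above 1, and the GAGA factor word and CACACA farthest below. CACACA is marked CLAMP-like, which is a plot label only and names no known site.

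Base composition differed between the classes, so the words were also compared among windows of like composition, a step added after the data were seen. In windows under 30% G and C, TATAAA stood at 38.5% of 377 divergent and 36.1% of 574 one-strand summits. In windows with 40% or more it stood at 5.45% of 202 divergent and 6.07% of 1136 one-strand summits. Most of the difference in this word was thus absent within classes. TAATTA stood at 22.5% of divergent and 15.9% of one-strand summits under 30%, and at 1.98% and 2.73% at 40% or more. The DRE word stood at 5.45% of divergent and 0.880% of one-strand summits at 40% or more, the M1BP word at 5.45% and 0.968%, and the BEAF-32 core at 28.7% and 19.2%. For GAGAG the shares in those windows were 13.9% and 21.4%. In the other 3 classes the DRE, M1BP and BEAF-32 words stayed more frequent at divergent summits, by fewer percentage points. Only GAGAG changed sign, in 1 class. The DRE word stood at 3.92% of divergent and 0.557% of one-strand summits from 30 to under 35%, and at 1.06% and 0% under 30%. The BEAF-32 core stood at 15.9% and 9.06% under 30%, at 23.5% and 16.4% from 30 to under 35%, and at 24.0% and 20.9% from 35 to under 40%. From 35 to under 40% the DRE word stood at 1.92% of divergent and 1.51% of one-strand summits and the M1BP word at 0.962% and 0.503%. GAGAG stood at 9.80% and 9.47% from 30 to under 35%, at 7.69% and 9.30% from 35 to under 40%, and at 4.77% and 6.27% under 30%.

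Of the 21 words searched, 15 had a ratio on the same side of 1 in the reproducible list and all 3 replicates, 6 of them above and 9 below. The exact sign-flip permutation p, two-sided, was 0.25 for each of those, or 0.309 with Benjamini-Hochberg adjustment over the words. Beside the words above, AAAAAA was higher, at 24.4% of divergent and 23.4% of one-strand summits and 23.3% of the upstream windows of all coding genes. Within classes of like composition it was lower at divergent summits in 3 of 4, at 34.2% and 39.7% under 30% G and C, 19.0% and 25.6% from 30 to under 35%, and 17.3% and 25.9% from 35 to under 40%. The other words were lower at divergent summits. GATAA of GATA factors, which can overlap CGATA, stood at 24.5% of divergent and 26.5% of one-strand summits and 26.2% of upstream windows, GCCAT of Pho at 11.96, 14.8 and 15.4%, and AGGTCA of nuclear receptors at 1.56, 1.91 and 1.92%, in the same order. CACGTG, an E-box, stood at 0.359, 1.13 and 0.990%, GGGCGG of Sp and KLF factors at 1.67, 2.15 and 1.98%, and GGCGCC of Brinker and Mad at 0.837, 1.42 and 1.91%. CAGCTG, another E-box, and TGACG of CRE-binding factors went one way in the reproducible list and the other way in the 3 replicates. CATCTG, a further E-box, CCACCC of KLF factors, CAGGTA of Zelda and GGAATG of Scalloped differed in direction among the replicates. A word is a match of letters, and what bound it was not tested.

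Genes of the ribosome were frequent among the members. Of 93 genes of the cytosolic ribosome, 30 (32.3%, Wilson 95% interval 23.6 to 42.3%) had a divergent summit, and of 75 genes of the mitochondrial ribosome, 28 (37.3%, 27.3 to 48.6%), against 1553 of all 13945 coding genes (11.1%). In replicates 1, 2 and 3 the counts were 30, 32 and 24 for the cytosolic and 28, 27 and 24 for the mitochondrial ribosome. These genes are often paired: 60.2% of the cytosolic and 78.7% of the mitochondrial list lie in a head-to-head pair, against 36.2% of coding genes. Among paired genes alone the shares with a divergent summit were 53.6% and 47.5%, against 30.4% of all paired coding genes.

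Within the cytosolic list, 69 genes (74.2%) had a summit at a start site, 30 of them at a divergent summit. Within the mitochondrial list 30 (40%) had one, 28 of them divergent. Over all coding genes, 3419 (24.5%) had one, 1553 of them at a divergent summit. RpL34b, with CG8132, had ranks 363, 329 and 321 in replicates 1, 2 and 3, at 5.5 bp from the midpoint. RpL32, with CG7943, had ranks 731, 519 and 1630. In the mitochondrial list mRpS10 and mRpS23 stood among the strongest pairs above, and mRpL23, with CG9004, had ranks 180, 85 and 278.

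Of 33 aminoacyl-tRNA synthetase genes, which charge tRNAs, 11 had a divergent summit (33.3%). Of 30 Rab GTPase genes, which direct vesicle traffic, 10 had one (33.3%), and of 79 genes of general transcription 21 (26.6%). Over all coding genes the share was 11.1%. Of these lists 69.7, 60 and 69.6%, in the same order, lie in a head-to-head pair, against 36.2% of coding genes. Among the paired genes 47.8, 55.6 and 38.2% had a divergent summit, against 30.4% of all paired coding genes. SerRS, with CG17260, had ranks 505, 546 and 573 in replicates 1, 2 and 3, though its start sites are 8 bp apart and the summit lay outside them. Rab8, with Usp32, had ranks 1562, 1590 and 2587. Polr3E, an RNA polymerase III subunit, with CG10584, had 431, 324 and 636, Polr2B, a large RNA polymerase II subunit, with 140up, had 443, 333 and 857, and the Mediator subunit MED30, with the DNA polymerase Rev1, had 642, 509 and 575.

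Oxidative phosphorylation had 16 of 91 genes (17.6%), the vacuolar ATPase 5 of 33 (15.2%), the proteasome 7 of 48 (14.6%) and translation factors 6 of 51 (11.8%), against 11.1% of all coding genes. The last 2 lists are near that level. Among the genes of these lists that lie in head-to-head pairs the shares were 34.8, 35.7, 26.9 and 24.0% in the same order, against 30.4% of all coding genes in such pairs. ND-ASHI, of respiratory complex I, with Fum1, had ranks 459, 425 and 338 in replicates 1, 2 and 3. Vha100-2, with Vti1b, had 344, 415 and 313. The proteasome lid subunit Rpn5, with the histone acetyltransferase Hat1, had 953, 572 and 1639. Rpt5, with RanBP3, had 2876 and 2742 in replicates 1 and 3 and no match in replicate 2.

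Of 35 spliceosome genes, 4 had a divergent summit (11.4%, against 11.1% of all coding genes), with 10, 5 and 8 in replicates 1, 2 and 3 (21.9 ± 7.19%, SD, n = 3). In a head-to-head pair lie 31 of the 35, and 12.9% of these had one, against 30.4% of all coding genes in such pairs. They included Sf3b6, with the importin Tnpo, with ranks 2000, 708 and 3174, and SmD3, with Oda, with 2411, 2594 and 1464. Of 117 cuticle genes 1 had a divergent summit (0.855%), Cpr73D, whose start site overlaps that of Ogdh. Of 176 chemoreceptor genes there was none; a count of 3, the limit that a count of 0 is taken to allow, would be 1.70%, and the upper Wilson limit is 2.14%. Only 12 of the cuticle genes (10.3%) and 25 of the chemoreceptor genes (14.2%) lie in a head-to-head pair, and none of these had a divergent summit. Genes known only by a CG number made up 30.5% of the members' genes and 43.7% of coding genes. Of these numbered genes 28.8% lie in a head-to-head pair, against 36.2% of coding genes. Among paired genes, 26.6% of the numbered ones had a divergent summit, against 30.4% of all.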

How the data were processed

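Per the text notes deposited beside them, peaks were called against a control alignment in each library and in the 3 libraries pooled, and the reproducible list (irreproducible discovery rate, IDR) was derived from these. Sonicated fragments of 200 to 800 bp and assembly dm6 are named in the labels. Which peak caller and aligner made them is not given in the sources used here. Each peak has a score deposited by the authors, the signal value, used only within a list. The −log10 q value deposited by the authors is at its ceiling (4.27) in all 7201 IDR peaks and was not used. The IDR peaks are the 7201 strongest of the pooled list; 403 of them repeat an interval.

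Start sites came from the Ensembl annotation (release 115; 13945 coding genes, 19607 coding start sites on 2L, 2R, 3L, 3R, 4 and X), and sequence from RefSeq. Coordinates are 1-based. The 3 libraries are 1 group, labelled biological replicates, and their lists were shortened by signal to 7201 peaks. Errors are SD over the 3 lists. Intervals are Wilson 95% intervals, Newcombe's for a difference, and cover counting error only. Words of 21 kinds were searched in windows of 101 bp. The scripts, tested on simulated data, ran under Python 3.11.15 with scipy 1.17.1 for intervals, pandas 2.3.3 and numpy 2.4.6 for tables and matplotlib 3.10.9 for plots.

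Genes were named by rule: the 15 strongest pairs, the 3 with the lowest signal at their strongest summit, pairs with 3 summits, the 3 strongest not in all replicate lists, up to 3 per gene list, and pairs whose sequence is printed. A gene that this rule selects is left out of the text. Gene lists were drawn up by symbol. Members, lists, words and tests were chosen with earlier results of these data known. Alternatives were other start site distances, 1 start site per gene, 1 summit per interval, the stronger peaks, head-to-head pairs only, a replicate left out (IDR peaks found in both others, which had still been called with it), and other match distances and windows. Comparisons by distance class and by base composition and of pair midpoints were added after the data were seen.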

Additional observations from a re-analysis of the deposited data

How the results depend on the processing

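No paired analysis was possible because there is 1 group. Of the values that answer a comparison, the divergent minus one-strand difference in the share found in all 3 replicate lists (3.89 points) changed sign: it was -1.13 in the 3600 IDR peaks of higher signal, -4.75 with full replicate lists and 12.9 with start sites within 250 bp. With a replicate left out it ranged from -5.57 to 8.21, but those summits were chosen for presence in the other 2 lists, so this says nothing of its stability. The others kept their direction. Some of their moves are set by the alternative itself. Fewer peaks cannot raise the share of pairs with a summit, and a wider distance rule cannot lower it or the divergent share. Other causes were not tested. Moves beyond the replicate spread were as follows. With start sites within 250 bp, the divergent share was 7.75%, the density ratio 4.13, pairs with a summit 22.5%, the median distance from the midpoint 37.2 bp, the share in all 3 lists 57.0%, the rank difference 18.3 and the G and C difference -8.80. With 1000 bp these were 16.4%, 2.08, 39.7% and 107 bp, with 63.8% between the start sites and a G and C difference of -3.10. In those 3600 peaks they were 14.1%, 3.37, 20.1%, 48.0 bp, 75.8%, 1.64 and -5.83. With 1 start site per gene the divergent share was 10.5%. The share in all 3 lists was 36.6% with matches within 50 bp, 63.9% within 250 bp and 71.2% in full lists. Pairs at most 500 bp apart had a summit in 38.0%. Windows of 100 bp to each side gave a G and C difference of -5.16. The density ratio was 4.29 at over 100 to 200 bp upstream and 1.04 as far downstream. Leaving out replicates 1, 2 and 3 in turn kept 3925, 4901 and 4266 of the 7201 peaks. With a replicate left out, ranges were 11.6 to 12.5% for the divergent share, 18.3 to 22.5% for pairs, 72.5 to 78.4% for summits between start sites, 49.5 to 54.0 bp from the midpoint, 75.7 to 93.9% in all 3 lists (again among summits chosen for presence in 2 of them) and -6.02 to -5.10 for G and C. Among single words, with 40% or more G and C the ratio was 0.897 for TATAAA and 0.726 for TAATTA, and at midpoints of pairs with against without a summit it was 0.852 for CGATA, 0.461 for GGTCACAC, 1.15 for GAGAG and 1.01 for CACACA. Of the 15 words of 1 direction, 13 or more kept it under each alternative that recomputed them all.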

Other observations

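The midpoints of head-to-head pairs over 100 to 500 bp apart were compared between the 599 pairs with a summit and the 967 without, which was added once the data had been seen. G and C made up 29.3% of the bases within 50 bp of the midpoint in pairs with a summit and 31.4% in pairs without. CAGGTA, the core of the site of the early embryonic factor Zelda, stood at 3.01% of midpoints with a summit and 0.931% of those without (2.66 ± 0.179% and 1.14 ± 0.0458%, SD, n = 3 replicate lists). The DRE word stood at 2.84% and 2.48%, the BEAF-32 core at 17.4% and 20.4%, the M1BP word at 0.668% and 1.45%, and the initiator word TCAGT at 12.2% and 17.1%. CAGGTA was picked from 21 words compared, and the SD over lists of the same pairs does not cover counting error. At the summits themselves it stood at 1.32% of divergent and 1.82% of one-strand summits, and its direction differed among the replicates.

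By chromosome arm, the share of head-to-head pairs with a summit was 34.8% on 3R (683 pairs), 31.0% on 2L, 30.9% on 3L, 27.4% on 2R and 27.0% on X (403 pairs), and 1 of the 11 pairs on chromosome 4 had one. Over all arms it was 30.6%. On 3R the replicates gave 37.6, 36.6 and 31.2%, and on X 27.5, 25.8 and 25.8%, without overlap. These arms were picked as those of highest and lowest share, chromosome 4 aside. The replicate lists score the same pairs, so their spread does not cover counting error. The Wilson intervals overlap slightly, at 31.4 to 38.5% on 3R and 22.9 to 31.6% on X. On 3L the replicates gave 33.4, 35.3 and 29.0%, which overlap those on 3R. On 2L the replicates gave 31.0, 31.0 and 28.7%, within the spread of the other arms.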
